A study of Mus musculus with 9 samples.

Results

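The 7 genes described here encode the mitophagy receptors and adaptors BNIP3, NIX (Bnip3l) and FUNDC1, the kinase PINK1, the autophagy adaptors p62 (Sqstm1) and optineurin (Optn), and the mitochondrial protein FAM162A. They are 7 rows, of 24054 in the deposited expression table, that carry these gene symbols. All 7 passed the filter on low values, which kept 12923 genes, and each was above 1 in all 9 libraries.

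The study exposed cultured mouse neurons to low oxygen, with and without thyroid hormone, to model hypoxic injury. Cortical neurons were taken from wild-type C57BL/6 mice and kept for 6 days in Neurobasal medium with B27, a serum-free supplement that in its standard formulation contains thyroid hormone. Messenger RNA was then sequenced from 3 groups of 3 libraries. The normoxia libraries came from neurons kept out of the low-oxygen gas. The hypoxia libraries came from neurons held at 0.2% oxygen for 7 hours. The hypoxia with T3 libraries had the same 7 hours at 0.2% oxygen with 10 nM T3 (triiodothyronine, the active thyroid hormone) in the medium. No group received T3 in normal oxygen, so an effect of T3 alone cannot be read from these libraries. The age of the mice and the number of animals pooled are not given in the sources used here. Nothing in the labels states that replicate libraries are from different cultures. If they are not, the p-values below weigh differences against technical spread only.

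Libraries carry their column numbers: normoxia 1 to 3, hypoxia 7 to 9, and T3 11 to 13. Values are the authors' TMM-normalized CPM, a gene's reads scaled to the size of the library, after a scaling that sets most genes level between libraries. Depth ran from 17182338 to 33937842 reads, and 1 read was worth 0.0302 to 0.0565 CPM. Of 4 genes that check the labels, the hypoxia-responsive Slc2a1 and Pdk1 were higher in hypoxia than in normoxia by 2.40 and 1.78 on the log2 scale, and the T3-responsive Hr and Klf9 were higher with T3 than without by 2.57 and 1.21, although Hr and Klf9 each have values that are not whole reads. All 8 neuron markers were present, with a summed level of 4383 to 4625 in normoxia, of 3141 to 3519 in hypoxia, and of 2736 to 2954 with T3. That difference was mostly Tubb3, whose mean was 2373, 1104 and 701, while Snap25 stood at 543, 516 and 554 and Rbfox3 at 105, 86.6 and 104. In hypoxia 0 of the 8 passed upward by limma and 2 downward, beside 14.3% and 19.3% of all tested genes. All 6 microglia markers were under 1 in every library. Oligodendrocyte-lineage markers ranged over 41.0 to 144 (summed) in normoxia, over 79.7 to 213 in hypoxia, and over 133 to 189 with T3, and progenitor markers to 16.9 to 102, 50.2 to 144 and 76.6 to 138. Both sums were lowest in normoxia 1. Astrocyte markers summed to 176 to 268, 187 to 349 and 240 to 331. That sum was mostly Slc1a2, whose mean was 169, 171 and 180. The mean of every other astrocyte marker was higher in hypoxia than in normoxia, such as Slc1a3 at 24.0, 50.6 and 48.8. Of the 7 tested, 1 passed upward in hypoxia by limma and 0 downward. The part of these cells in the results below was not tested.

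Mitophagy is the removal of mitochondria by autophagy, in which a membrane coated with LC3 and GABARAP proteins closes around the organelle and delivers it to a lysosome. In the receptor route, proteins of the outer mitochondrial membrane such as BNIP3, NIX and FUNDC1 bind LC3 or GABARAP directly, and Bnip3 is a textbook target of the hypoxia-inducible transcription factor HIF. In the ubiquitin route, PINK1 builds up on damaged mitochondria and sets off the tagging of outer membrane proteins with ubiquitin, and p62 and optineurin link that ubiquitin to LC3.

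The HIF complex binds DNA at a short core, ACGTG or GCGTG, so the promoters of 3 genes are shown to set the sequence beside the expression: Bnip3 and Fam162a, the genes with the largest increase in hypoxia among the 7, and Pink1, which was lower. The stretches are RefSeq's for build GRCm38.p6, written 5′ to 3′ on the gene's own strand, and end at the base before the annotated gene. Capitals mark each match to ACGTG or GCGTG on either strand (a match on the other strand reads CACGT or CACGC).
Bnip3: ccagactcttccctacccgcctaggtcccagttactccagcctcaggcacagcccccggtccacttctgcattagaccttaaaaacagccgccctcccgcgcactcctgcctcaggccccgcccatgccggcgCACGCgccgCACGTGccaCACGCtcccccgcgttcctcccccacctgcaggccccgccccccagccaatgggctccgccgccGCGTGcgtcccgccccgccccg
Fam162a: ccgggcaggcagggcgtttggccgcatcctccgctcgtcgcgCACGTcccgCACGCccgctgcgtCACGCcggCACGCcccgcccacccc
Pink1: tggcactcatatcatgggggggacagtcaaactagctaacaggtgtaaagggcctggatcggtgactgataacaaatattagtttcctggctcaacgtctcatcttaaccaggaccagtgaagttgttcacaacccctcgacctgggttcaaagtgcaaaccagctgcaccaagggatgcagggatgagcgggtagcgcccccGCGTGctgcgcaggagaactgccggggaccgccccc
The Bnip3 stretch is chr7:138909520-138909756 on the minus strand (237 bases) and holds 5 matches, of which 2 are the overlapping strands of a single palindrome. The Fam162a stretch is chr16:36071595-36071684 on the minus strand (90 bases), the gap between Fam162a and its divergent neighbour Ccdc58, and holds 4 matches. The Pink1 stretch is chr4:138326308-138326546 on the minus strand (239 bases) and holds 1 match. Over whole windows of 250 bases before the RefSeq start, the number of matches was 6 in Fam162a, 5 in Bnip3, 2 in Optn, 1 in Pink1, and 0 in Fundc1 and Sqstm1. RefSeq promoters were found for these 6 of the 7 genes. The Fundc1 window, chrX:17572008-17572257, lies wholly inside the annotated gene, so its 0 counts no base upstream of that gene. Of 32851 mouse promoter windows of the same length, 38.6% held at least 1 match, 1.01% held 5 or more and 0.417% held 6 or more. These windows were not matched to the genes shown for base composition. A match of letters is a description and does not show that a factor binds there. Ccdc58, named here for its position after its values were seen, had a mean of 6.53 ± 0.286 (SD, n = 3) in normoxia and 7.34 ± 1.13 in hypoxia, a log2 difference of 0.14 (limma adjusted p = 0.37).

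In hypoxia, 3 of the 7 genes rose and 1 fell against normoxia with the deposited scaling (5 and 0 with equal column sums). Bnip3 and Fam162a rose more than 3-fold, Sqstm1 rose by a small amount, Pink1 fell, and Bnip3l, Fundc1 and Optn did not pass the test. Over all tested genes 33.6% passed in this comparison, 14.3% upward and 19.3% downward. Without overlap between the libraries of both groups, 4 of the 7 genes were higher (20.7% of all tested genes) and 1 lower (27% of all). The median log2 change of the 7 genes was 0.12, beside -0.00 over all tested genes. In bulk RNA, fewer cells of a type and less RNA per cell cannot be told apart. The split depends on how libraries are scaled. When all columns were set to equal sums, the median of all tested genes moved to 0.13 and that of the 7 genes to 0.26. Of all tested genes 30.8% then passed upward and 9.5% downward, 40.3% in all. Bnip3l and Optn joined the genes that rose, and Pink1 did not pass. With the deposited scaling 42.5% of all genes that passed were higher, and with equal sums 76.4%.

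**Figure D1:**
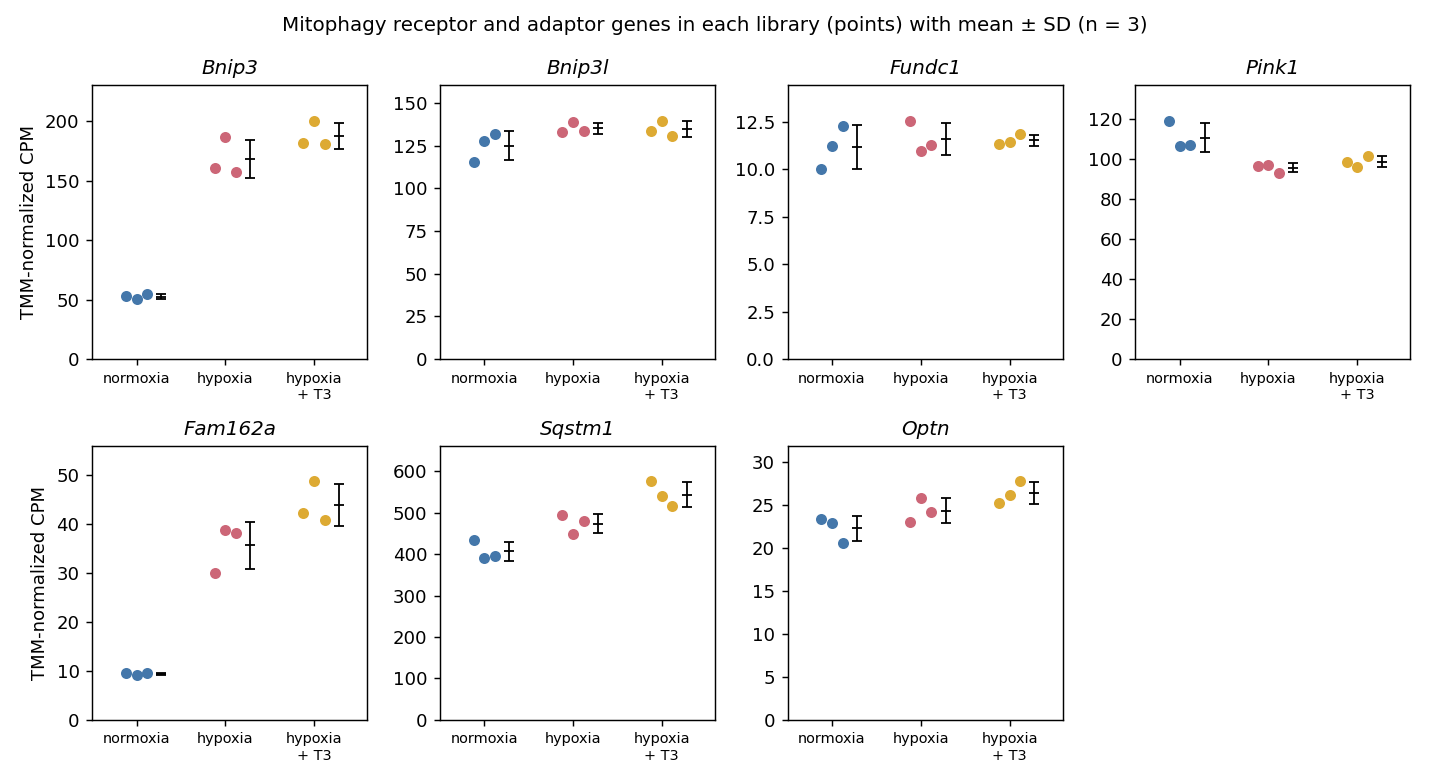
TMM-normalized CPM of each of the 7 genes (y axis, from 0) in every library, grouped by condition on the x axis, with mean ± SD (n = 3) beside the points. Bnip3 and Fam162a show a gap between normoxia and both hypoxia groups, while Fundc1 stays between 9.99 and 12.5 in every library.

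Bnip3, the receptor on the outer mitochondrial membrane, is at chr7:138890836-138909519 on the minus strand. Its level was 52.7, 50.4 and 54.7 in normoxia 1 to 3, and 161, 187 and 157 in hypoxia 7 to 9. In hypoxia with T3 it was 182, 201 and 181 in libraries 11 to 13. Every hypoxia library lay above every normoxia library, while the hypoxia groups with and without T3 overlapped through hypoxia 8. The means were 52.6 ± 2.16, 168 ± 16.4 and 188 ± 11 (SD, n = 3 each). In hypoxia Bnip3 rose by 1.66 on the log2 scale (SE 0.07, limma adjusted p = 1.7e-07), and the ratio of the means was 3.20. The T3 group stood 0.16 above hypoxia alone (SE 0.07, 95% interval 0.00 to 0.32, limma adjusted p = 0.17), which did not pass. An antisense gene, Gm45507, shares 504 exon bases with Bnip3 and has no values in the deposited data, so its level could not be examined. The strand setting of the authors' counting is not given, so reads of the pair could not be told apart had strand been ignored.

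Fam162a, also known as HGTD-P, encodes a mitochondrial protein described as responding to hypoxia through HIF. It lies at chr16:36043761-36071594. Its level was 9.57, 9.18 and 9.47 in normoxia, 30.1, 38.7 and 38.2 in hypoxia, and 42.2, 48.7 and 40.8 with T3. The 3 groups did not overlap at any point, and hypoxia 7 was the lowest of its group. Fam162a rose by 1.81 in hypoxia (SE 0.10, limma adjusted p = 1.1e-06), from 9.41 ± 0.203 to 35.7 ± 4.86. With T3 the mean was 43.9 ± 4.23, and the difference from hypoxia alone was 0.30 (SE 0.10, 95% interval 0.07 to 0.52, limma adjusted p = 0.094). Wdr5b, on the opposite strand, shares 168 exon bases with Fam162a. Its own level was low and had the other order, 3.47 to 4.20 in normoxia, then 1.72 to 1.87 in hypoxia and 0.898 to 1.39 with T3.

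Bnip3l encodes NIX, the closest relative of BNIP3 and the receptor known for clearing mitochondria from maturing red blood cells. It is at chr14:66985239-67008877. Its level was 115, 128 and 132 in normoxia, 133, 139 and 133 in hypoxia, and 133, 140 and 130 with T3. The hypoxia libraries lay just above the normoxia ones, with normoxia 3 next to them. The difference in hypoxia was 0.11 (SE 0.06, 95% interval -0.01 to 0.24, limma adjusted p = 0.14), and that between T3 and hypoxia was -0.01 (95% interval -0.13 to 0.12, limma adjusted p = 0.95). Bnip3l did pass, upward in hypoxia, with equal column sums (0.25, limma adjusted p = 0.012) and with quantile normalization (0.20, limma adjusted p = 0.027).

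The pair of related receptors was therefore compared inside each library, where scaling cancels apart from the pseudocount of 1. The linear ratio of Bnip3 to Bnip3l was 0.457, 0.395 and 0.416 in normoxia, 1.21, 1.35 and 1.18 in hypoxia, and 1.37, 1.44 and 1.39 with T3. Bnip3 was thus the lower of the pair in reads in every normoxia library and the higher in every hypoxia library. On the log2 scale the ratio was -1.23 ± 0.106 in normoxia, 0.31 ± 0.104 in hypoxia and 0.48 ± 0.037 with T3 (SD, n = 3). Hypoxia and normoxia differed by 1.54 (exact permutation test, two-sided, p = 0.1), and T3 and hypoxia by 0.17 (exact permutation p = 0.1). With 3 libraries against 3, 0.1 is the smallest p this test can give, and over the 9 ratio tests the adjusted value was 0.225 for both.

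**Figure D2:**
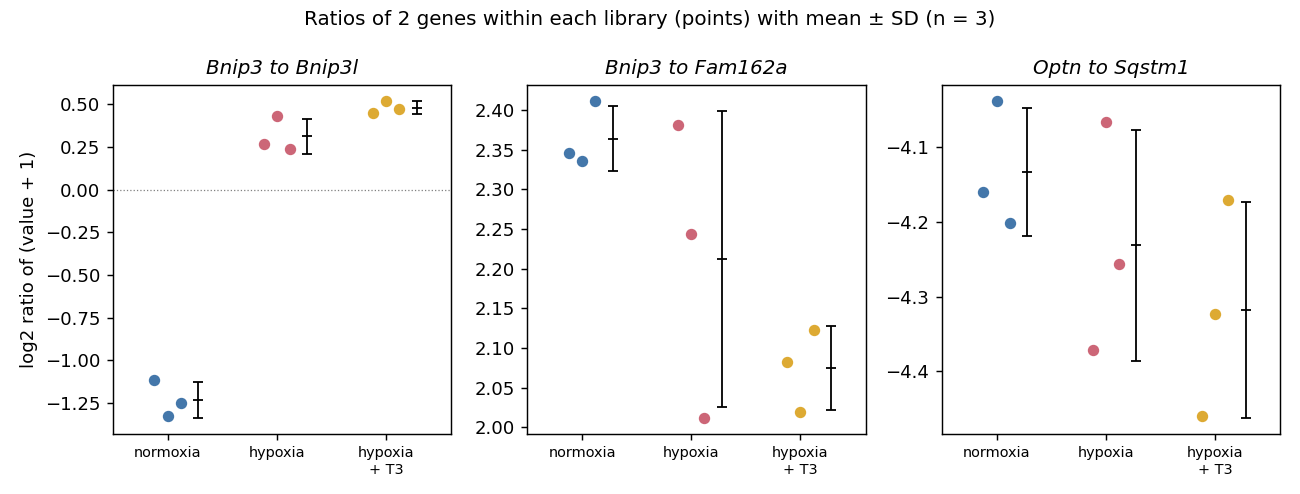
Log2 ratio of the values (each plus 1) of 2 genes within each library (y axes, with separate ranges), by condition, with mean ± SD (n = 3). The Bnip3 to Bnip3l ratio crosses 0 between normoxia (-1.23 on average) and hypoxia (0.31), while Bnip3 to Fam162a runs only from 2.36 on average in normoxia to 2.07 with T3 and Optn to Sqstm1 from -4.13 to -4.32.

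Bnip3 and Fam162a rose by similar factors in hypoxia, 3.20 and 3.79 as ratios of the means. The log2 ratio of Bnip3 to Fam162a was 2.36 ± 0.042 in normoxia, 2.21 ± 0.187 in hypoxia and 2.07 ± 0.052 with T3 (SD, n = 3). The difference was -0.15 between hypoxia and normoxia (exact permutation p = 0.3) and -0.29 between T3 and normoxia (exact permutation p = 0.1, adjusted 0.225). The sign of the first depends on the pseudocount, since Fam162a is low in normoxia: with a pseudocount of 5 it was 0.10.

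Fundc1, an outer membrane receptor that is controlled mainly by phosphorylation, is at chrX:17556564-17572325. Its level was 9.99, 11.2 and 12.3 in normoxia, 12.5, 10.9 and 11.2 in hypoxia, and 11.3, 11.4 and 11.8 with T3. The 3 groups overlapped fully. The difference in hypoxia was 0.05 (SE 0.10, 95% interval -0.16 to 0.26, limma adjusted p = 0.71). For T3 against hypoxia the interval was -0.22 to 0.21 (limma adjusted p = 0.98).

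In the ubiquitin route, Pink1 fell in hypoxia with the deposited scaling and did not pass with equal column sums. Pink1, the kinase that senses damaged mitochondria, is at chr4:138313409-138326307. Its level was 119, 106 and 107 in normoxia, 96.7, 97.0 and 93.0 in hypoxia, and 98.4, 95.9 and 101 with T3. Both hypoxia groups lay below all normoxia libraries, and normoxia 1 was the highest of all. Pink1 fell by 0.21 in hypoxia (SE 0.06, limma adjusted p = 0.016), to a ratio of means of 0.863. The T3 group differed from hypoxia alone by 0.04 (95% interval -0.08 to 0.17, limma adjusted p = 0.66). The call was kept in 19 of 22 other settings. It was lost with equal column sums (-0.07, limma adjusted p = 0.27), without normoxia 1 (adjusted p = 0.054) and without hypoxia 9 (adjusted p = 0.058).

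Sqstm1 encodes p62, which carries ubiquitinated cargo to LC3 and is itself degraded by autophagy. It is at chr11:50199366-50210827. Its level was 434, 391 and 395 in normoxia, 495, 448 and 479 in hypoxia, and 576, 541 and 516 with T3. The groups formed 3 steps without overlap. Sqstm1 rose by 0.22 in hypoxia (SE 0.06, limma adjusted p = 0.017), from 407 ± 23.5 to 474 ± 23.5 (SD, n = 3). With T3 the mean was 544 ± 30.1, and the difference from hypoxia was 0.20 (SE 0.06, 95% interval 0.07 to 0.33, limma adjusted p = 0.065). The call in hypoxia, but not the size of the change, was lost without normoxia 2 (0.19, adjusted p = 0.06), normoxia 3 (0.20, 0.053), hypoxia 7 (0.19, 0.06) or hypoxia 9 (0.21, 0.055), all by limma. Mrnip, listed in the table under an older symbol, lies on the opposite strand and shares 580 exon bases with Sqstm1. Its level stayed at 9.44 to 13.1 in all 9 libraries.

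Optn encodes optineurin, the ubiquitin adaptor that works with the kinase TBK1. It is at chr2:5020642-5064051. Its level was 23.3, 22.9 and 20.5 in normoxia, 22.9, 25.8 and 24.1 in hypoxia, and 25.2, 26.1 and 27.7 with T3. Normoxia and hypoxia overlapped, and the T3 group lay above all normoxia libraries. The difference in hypoxia was 0.12 (SE 0.08, 95% interval -0.05 to 0.29, limma adjusted p = 0.25), and with equal column sums it was 0.26 (limma adjusted p = 0.03). The log2 ratio of Optn to Sqstm1 within a library was -4.13 ± 0.085 in normoxia, -4.23 ± 0.154 in hypoxia and -4.32 ± 0.144 with T3 (SD, n = 3). The groups overlapped, and the differences gave exact permutation p-values of 0.2 to 0.5.

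When T3 was present during hypoxia, 0 of the 7 genes passed against hypoxia alone, where 6.48% of all tested genes did, 2.73% upward and 3.75% downward. At an unadjusted p under 0.05, limma, edgeR and DESeq2, all run on the same libraries, each named the same 3 genes. They were Bnip3, Fam162a and Sqstm1, all higher with T3. The share of all tested genes under that unadjusted threshold is not given here, so nothing particular to the 7 genes is read from this count. After adjustment edgeR called 0 and DESeq2 called 1, Sqstm1 (0.20, adjusted p = 0.02). With libraries weighted by their spread, limma called all 3: Fam162a (0.39, adjusted p = 0.014), Sqstm1 (0.20, adjusted p = 0.015) and Bnip3 (0.21, adjusted p = 0.043). Without T3 library 13, limma called Sqstm1 (0.24, adjusted p = 0.037). Calls over all tested genes were also more frequent in these settings, at 23.6% with library weights, 13.5% with DESeq2 and 14.2% without T3 13, beside 6.48% above. Fam162a and Sqstm1 were higher in all 3 T3 libraries than in any hypoxia library, a separation that 15.8% of all tested genes showed in this direction. The median log2 change of the 7 genes was 0.11, beside -0.01 over all tested genes.

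**Figure D3:**
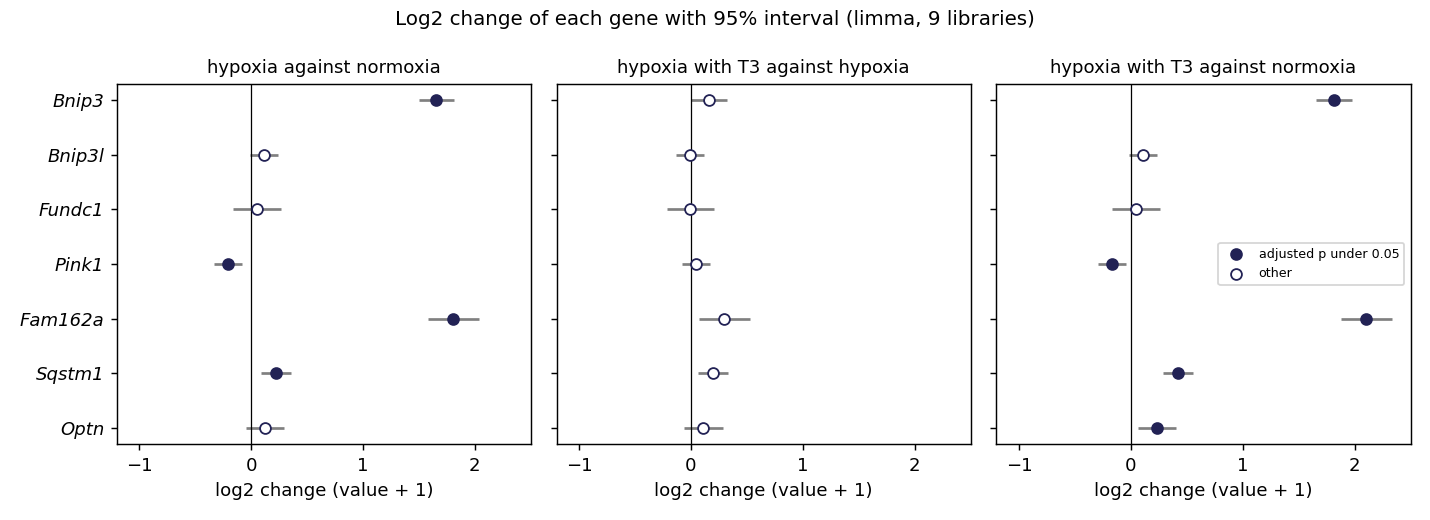
Log2 change of each gene (x axis, on the scale of log2 of the value plus 1) with its 95% interval from limma over 9 libraries, for the 3 comparisons; filled points have an adjusted p under 0.05. The middle panel, T3 against hypoxia, has no filled point, while the outer panels share the direction of Bnip3, Fam162a and Sqstm1 to the right and of Pink1 to the left (with equal column sums Pink1 did not pass).

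Set against normoxia, hypoxia with T3 had 4 of the 7 genes higher and 1 lower (5 and 0 with equal column sums or quantile normalization). In this comparison 55.1% of all tested genes passed, 25.5% upward and 29.5% downward, so nothing particular to the 7 genes is read from this count. The groups did not overlap in 4 genes that were higher (29.8% of all tested genes) and 1 that was lower (33% of all). It uses the same normoxia libraries as hypoxia alone and the same T3 libraries as T3 against hypoxia, so its values are not independent of those above. Bnip3 was higher by 1.82 (limma adjusted p = 3.6e-08), Fam162a by 2.11 (adjusted p = 1.5e-07) and Sqstm1 by 0.42 (adjusted p = 0.00018). Optn, at 22.2 ± 1.49 in normoxia and 26.3 ± 1.26 with T3, passed in this comparison and not in the other two, with 0.24 (limma adjusted p = 0.025), and the call was lost without normoxia 3 (adjusted p = 0.093), T3 12 (0.058) or T3 13 (0.081). The difference between its changes against normoxia with and without T3 is the T3 against hypoxia difference of 0.11 (limma adjusted p = 0.38), which did not pass. Pink1 had a change of -0.16 (limma adjusted p = 0.027), lost in 6 of 22 other settings: with equal column sums (0.31), quantile normalization (0.11), no variance trend (0.053), and without normoxia 1 (0.1), T3 11 (0.061) or T3 12 (0.099). Bnip3l (0.11, adjusted p = 0.13) and Fundc1 (0.05, adjusted p = 0.71) did not pass, although Bnip3l did with equal column sums (0.21, adjusted p = 0.018), quantile normalization (0.18, 0.026) and library weights (0.13, 0.035).

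Levels between genes were compared per kilobase of annotated exon. In normoxia the order was Sqstm1 (144 CPM per kb), Pink1 (41.4), Bnip3l (38.1), Bnip3 (28.4), Fam162a (12.2), Optn (8.51) and Fundc1 (4.85). Pink1 and Bnip3l were not separated, with 39.8 to 44.6 and 35.2 to 40.1 over the 3 libraries. In hypoxia Bnip3 was the second of the 7 at 90.8 ± 8.83 and Fam162a stood at 46.3 ± 6.30, where its libraries (39.0 to 50.2) spanned those of Bnip3l (40.6 to 42.3). With T3 Bnip3 was at 101 ± 5.93 and Fam162a at 57.0 ± 5.49, both above Bnip3l at 41.0. Per length, then, Bnip3 stood below Bnip3l and Pink1 in normoxia and above both in hypoxia.

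The genes whose values followed each member most closely over the 9 libraries are given as a description, because the 9 points share the 3 conditions. For Bnip3 they were Mxi1, Ldha and Pdk1 (Pearson r = 0.996 for each), and for Fam162a they were Slc2a1 (0.999), Eno1 (0.998) and Higd1a (0.998). Ldha, Eno1, Pdk1 and Slc2a1 encode glycolytic enzymes, a kinase of pyruvate dehydrogenase and a glucose transporter. Bnip3 and Fam162a correlated with each other at 0.993, Bnip3 and Bnip3l at 0.719, and Bnip3 and Pink1 at -0.834. Close to Pink1 were Acsl3 (0.985), which activates fatty acids, and Srebf2 (0.984), a transcription factor of sterol synthesis. Sqstm1 was followed by Eif1b (0.994), Trim32 (0.992) and Zrsr2 (0.990). For the genes that changed least the likeness was lower: Bnip3l had Polr2k (0.958), Cox16 (0.950) and Racgap1 (0.949), Fundc1 had Cops2 (0.944), Syap1 (0.927) and Btf3l4 (0.913), and Optn had Sh2d5 (0.964), Rab26os (0.963) and Rnf32 (0.962).

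The wider pathway was read from a list of 116 mitophagy, autophagy and lysosome genes without the 7, of which 112 were tested. In hypoxia 13 were higher and 17 lower, 26.8% in all beside 33.6% of all tested genes, with a median log2 change of -0.00. This split, too, turned on the scaling: with equal column sums 43 were higher and 4 lower, and with quantile normalization 22 and 8. Of the list genes that passed, 91.5% and 73.3% were thus higher, beside 76.4% and 50.6% of all genes that passed. With the deposited scaling these shares were 43.3% for the list and 42.5% for all. With median-of-ratios scaling it was 12 and 17. Prkaa2, Ambra1, Atg7, Ppargc1a, Atg9a, Atg12, Gabarapl1 and Cox4i1, described below, kept direction and call in all 22 other settings.

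The group of 19 other receptors and adaptors also holds regulators such as Prkaa2 and Rheb. In hypoxia 0 of the 19 rose and 4 fell (21.1%, beside 33.6% of all tested genes), a split that turned to 4 and 2 with equal column sums. Prkaa2, a catalytic subunit of the energy sensor AMPK, went from 128 ± 12.3 to 93.9 ± 4.50 (-0.44, limma adjusted p = 0.0026). Ambra1, a scaffold of autophagy that also binds LC3 on mitochondria, went from 102 ± 5.73 to 76.3 ± 5.12 (-0.41, adjusted p = 0.0051). Of 24 genes of the PINK1 pathway, 1 rose and 7 fell (33.3%, beside 33.6% of all tested genes), Pink1 not counted. With equal column sums 10 rose and 0 fell, where 30.8% of all tested genes passed upward and 9.5% downward. The 7 that fell include the mitochondrial protease Htra2 (-0.28, limma adjusted p = 0.0095) and the fusion protein Mfn2 (-0.19, adjusted p = 0.011). With equal column sums neither Htra2 (adjusted p = 0.1) nor Mfn2 (0.37) passed.

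Of 15 genes of the LC3 and GABARAP family and its conjugation enzymes, 4 rose and 1 fell (8 and 1 with equal column sums), beside 33.6% of all tested genes that passed. Gabarapl1, an LC3-like protein, went from 265 ± 12.4 to 310 ± 10.4 (0.22, limma adjusted p = 0.012), and the conjugation protein Atg12 from 101 ± 0.817 to 125 ± 4.39 (0.30, adjusted p = 0.0032). The one that fell was Atg7, the E1-like enzyme of both conjugation reactions, from 26.5 ± 1.04 to 19.0 ± 1.62 (-0.46, adjusted p = 0.0026). Of 18 autophagy initiation genes 3 rose and 1 fell (6 and 0 with equal column sums), among them the membrane protein Atg9a, from 150 ± 10.5 to 190 ± 4.05 (0.34, limma adjusted p = 0.0019), and the kinase Ulk2 (-0.25, adjusted p = 0.005), which did not pass with equal column sums (-0.11, adjusted p = 0.09) or quantile normalization (-0.13, 0.064).

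Of 9 fission and fusion genes 1 rose and 3 fell (44.4%, beside 33.6% of all tested genes), against 4 and 0 with equal column sums. The fission factor Fis1 changed by 0.26 (limma adjusted p = 0.015; without hypoxia 9, 0.06). The fission enzyme Dnm1l changed by -0.22 (limma adjusted p = 0.019), and its call was lost in 5 of 22 other settings. With equal column sums the change was -0.08 (adjusted p = 0.33) and with quantile normalization -0.09 (0.25), while without normoxia 2, hypoxia 8 or hypoxia 9 it was -0.20 (0.059), -0.21 (0.055) and -0.16 (0.077). Of 14 lysosome genes 2 rose and 0 fell (5 and 0 with equal column sums), and of 13 genes of mitochondrial content 2 rose and 1 fell (6 and 1). With the deposited scaling these were 14.3% and 23.1% of their groups. Cox4i1, a subunit of cytochrome oxidase, went from 157 ± 11.1 to 196 ± 5.00 (0.32, limma adjusted p = 0.0041). Ppargc1a, the coactivator that drives mitochondrial biogenesis, went from 33.1 ± 2.61 to 23.4 ± 1.66 (-0.48, adjusted p = 0.003).

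**Figure D4:**
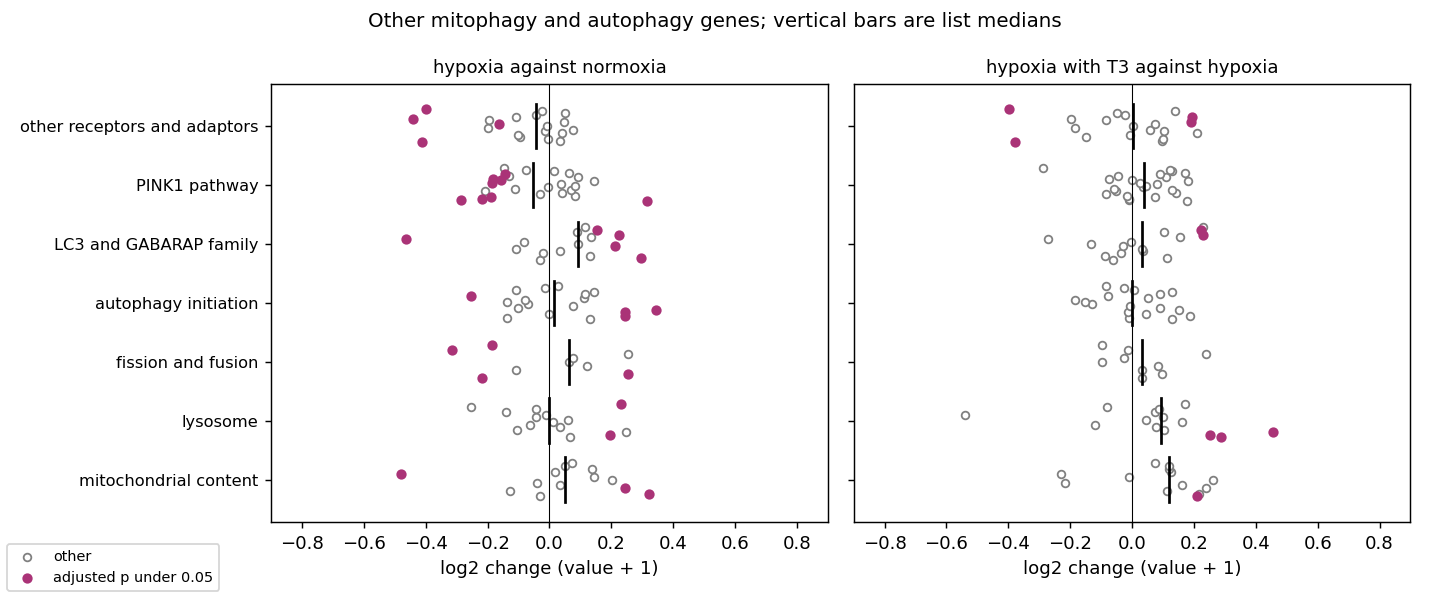
Log2 change (x axis, on the scale of log2 of the value plus 1) of each tested gene of the 7 groups of the pathway list (rows), for hypoxia against normoxia and T3 against hypoxia, with filled points for an adjusted p under 0.05 and a bar at each group's median. In hypoxia 0 of the filled points of the other receptors and adaptors lie to the right of 0 (with equal column sums 4 rose and 2 fell), and with T3 all 3 filled lysosome points do.

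With T3 added to hypoxia, 8 of the 112 list genes rose and 2 fell, 8.93% beside 6.48% of all tested genes, with a median log2 change of 0.05. By group, 3 of 14 lysosome genes rose, all cathepsins, the proteases that degrade cargo in the lysosome. Ctsl went from 87.6 ± 10.4 to 120 ± 8.13 (0.46, limma adjusted p = 0.024), Ctsb from 256 ± 16.3 to 312 ± 18.1 (0.29, adjusted p = 0.038) and Ctsd from 197 ± 9.77 to 234 ± 14.3 (0.25, adjusted p = 0.039). In the LC3 and GABARAP family 2 of 15 rose, Map1lc3a (0.22, limma adjusted p = 0.038) and Gabarapl1 (0.23, adjusted p = 0.041). Among the other receptors and adaptors 2 of 19 rose (0 with equal column sums), the inner membrane receptor Phb2 (0.19, limma adjusted p = 0.043) and the GTPase Rheb (0.19, adjusted p = 0.04), and 2 fell, of which Ambra1 went from 76.3 ± 5.12 to 58.8 ± 7.46 (-0.38, adjusted p = 0.035). In the PINK1 pathway, autophagy initiation, and fission and fusion, 0 genes passed. These calls were close to the threshold, and each gene named in this paragraph lost its call in 6 to 11 of 22 other settings. Without hypoxia 7, hypoxia 8, T3 11 or T3 12, 0 of the list genes passed, and without T3 13, 20 of 112 did. Over all tested genes 31 to 88 passed without each of the first 4 libraries, and 14.2% passed without T3 13.

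Against normoxia, hypoxia with T3 had 35 list genes higher and 27 lower, 55.4% beside 55.1% of all tested genes (50 and 13 with equal column sums). With equal column sums 79.4% of the list genes that passed were higher, beside 61.4% of all genes that passed. The genes named next kept direction and call in all 22 other settings. The lysosomal proteases Ctsl (0.70, limma adjusted p = 9.7e-05) and Ctsd (0.45, adjusted p = 0.00013) and the lysosomal transcription factor Tfe3 (0.40, adjusted p = 0.00027) were higher. Gabarapl1 (0.45, limma adjusted p = 7.2e-05), Atg9a (0.50, adjusted p = 6e-05) and Fis1 (0.35, adjusted p = 0.0012) were higher too. Ambra1 (-0.79, limma adjusted p = 3.5e-05), Prkaa2 (-0.64, adjusted p = 9.1e-05), Atg7 (-0.73, adjusted p = 5e-05) and Ppargc1a (-0.71, adjusted p = 9.4e-05) were lower. In the PINK1 pathway 6 of 24 were higher and 9 lower (10 and 3 with equal column sums), and Fbxo7, a ubiquitin ligase subunit, went from 8.75 ± 0.806 to 12.7 ± 0.476 (0.49, limma adjusted p = 0.0016).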

How the data were processed

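Stranded poly-A RNA-seq libraries were made, per the labels' protocols. The submitters' processing notes name the mm10 genome and the tools RSEM 1.2.15, Bowtie2 2.1.0 and edgeR. Annotation release, filters and counting strand are not given in the sources used here. The deposited values are a signal scaled by the authors, TMM-normalized CPM, whose columns sum to 945822 to 1091200. In 99.888% to 99.996% of the rows of a library they are whole multiples of 1 read (within 0.01 reads), from which reads were recovered; the recovered depth covers counting error only. The values of the 7 genes were whole reads, and 35 rows were not in at least 1 library. An unnamed column holding 4 numbers was not used (1 column), and 27 symbols had become dates.

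Genes above 1 in at least 3 libraries were tested with limma 3.58.1 in R 4.3.3 on log2 of the value plus 1, fitting all 9 libraries by group (6 residual degrees of freedom, variance trend), two-sided, with Benjamini-Hochberg adjustment over 12923 genes and a threshold of 0.05. Ratios of 2 genes were tested by exact permutation. Alternatives were pseudocounts of 0.1 and 5, no filter, a mean of at least 5, only the 2 groups compared, equal column sums, median-of-ratios scaling, quantile normalization, no variance trend, library weights, edgeR 4.0.16 and DESeq2 1.42.0 on the recovered reads, each library left out and, chosen after seeing the data, leaving out the 35 rows. A gene's log2 change cannot move with another filter, no variance trend, only the 2 groups compared, or a library of the third group left out. In those settings only the call could change. The method was tested on simulated data with few changed genes and known scaling, which do not cover how the real calls depend on scaling. Coordinates and exon lengths are from GENCODE M21 (GRCm38), promoters from RefSeq (GRCm38.p6).

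The 7 genes, the pathway list and the marker lists were chosen with earlier results of these data known. Genes named in the text are the 7, for each the 3 tested genes most correlated with it over the 9 libraries (predicted genes left out; 1 gene of the membership rule and 1 correlated gene are not reported here), for each group of the pathway list and comparison up to 3 genes with the smallest adjusted p among those that passed, and the 4 label checks; Ccdc58, genes overlapping a member and cell type markers are named for position or lineage.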

Additional observations from a re-analysis of the deposited data

How the results depend on the processing

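No paired analysis was possible because the hypoxia and T3 column numbers (7 to 9 and 11 to 13) are not the replicate numbers in the titles. In hypoxia against normoxia, Bnip3 and Fam162a kept direction and call in all 22 alternatives, with log2 changes of 1.58 to 1.79 and 1.49 to 1.94. The number of the 7 genes that passed in hypoxia was 2 to 4 when 1 library was left out (2 without hypoxia 9, 3 without normoxia 1, 2 or 3 or hypoxia 7). Of the pathway list, 47 genes passed with equal column sums instead of 30, and 12 to 29 with 1 library left out (12 without hypoxia 9, 19 without normoxia 1 or normoxia 2). Over all tested genes 23% passed without hypoxia 9, beside 33.6%. For T3 against hypoxia, 3 of the 7 genes passed with library weights, 1 with DESeq2, and 0 to 1 with 1 library left out (1 without T3 13). The pathway list count of 10 in T3 against hypoxia became 0 with no filter or no variance trend, 2 with only the 2 groups, 32 with weights and 19 with DESeq2, and 0 to 20 with 1 library left out (5 without normoxia 3, 6 without normoxia 2). In this comparison 6.48% of all tested genes passed, 23.6% with weights, 13.5% with DESeq2 and 14.2% without T3 13. Against normoxia, T3 had 3 to 5 of the 7 pass with 1 library left out (3 without T3 12).

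Some differences that did not pass changed sign. With 1 library left out, Fundc1 ran from -0.0207 (without normoxia 1) to 0.116 in hypoxia, from -0.0416 to 0.0499 (without hypoxia 7) for T3 against hypoxia, and from -0.0256 (without normoxia 1) to 0.112 for T3 against normoxia. For T3 against hypoxia, Bnip3l ran from -0.0342 to 0.0145 (without T3 13). In that comparison Fundc1 was 0.0461 with quantile normalization and 5.0e-05 with edgeR, and Bnip3l was 0.0245 with weights. The log2 ratio of Bnip3 to Fam162a differed by 0.10 between hypoxia and normoxia with a pseudocount of 5, and that of Optn to Sqstm1 by 0.0185 between T3 and hypoxia with quantile normalization. The cause of these moves was not tested.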
